A study of Mus musculus with 3 samples.

Results

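The genes described here are 10 regulators and markers that mouse pluripotent cells use or gain as they leave the naive state: Otx2, Gbx2, Pou3f1, Fgf5, Lef1, Zic2, Zic5, Sox3, Foxd3 and Tcf7l1. They were chosen by name, as known genes of formative and primed epiblast, with earlier results of these data known. All 10 were found among the 24006 gene symbols of the tables. The study sequenced polyadenylated RNA of mouse embryonic stem cells (ESCs) of 3 genotypes, labelled wildtype, DAXX-/- and ATRX-/-. ATRX is a chromatin remodeller and DAXX its partner, a chaperone of the histone variant H3.3. Each genotype was 1 male clone with 1 library, made by CRISPR targeting on an isogenic C57BL/6x129sV background. All 3 clones were grown in serum with leukaemia inhibitory factor and had been passaged away from irradiated feeder cells onto gelatin. Genotype, clone and library therefore cannot be told apart, and no difference has a replicate check or a p-value.

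In the embryo, ESCs resemble the naive epiblast of the blastocyst, which passes through a formative state to the primed epiblast before the germ layers form. Otx2 and Pou3f1 (Oct6) are transcription factors that take part in that exit, and Fgf5 is a growth factor widely used as a marker of its completion. Tcf7l1 (Tcf3) represses naive genes and Lef1 activates Wnt targets. Both are DNA-binding factors that beta-catenin can bind. Cultures in serum hold a mixture of naive cells and cells that have moved some way along this path. In bulk RNA, fewer cells of a kind and less RNA per cell cannot be told apart.

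Promoter windows from RefSeq (assembly GRCm38.p6) were matched for 7 of the 10 genes, as 13 windows. The 250 bases upstream of 1 annotated start are shown for Otx2 and Gbx2, the genes with the called differences below, and for Foxd3 as another gene whose level differed between the knockout libraries. CpG dinucleotides are in capitals, to show how their number differs among the 3 windows. The windows lie at chr14:48667645-48667894 on the minus strand (Otx2), chr1:89931177-89931426 on the minus strand (Gbx2) and chr4:99656049-99656298 on the plus strand (Foxd3), and read 5′ to 3′ toward the start.
Otx2: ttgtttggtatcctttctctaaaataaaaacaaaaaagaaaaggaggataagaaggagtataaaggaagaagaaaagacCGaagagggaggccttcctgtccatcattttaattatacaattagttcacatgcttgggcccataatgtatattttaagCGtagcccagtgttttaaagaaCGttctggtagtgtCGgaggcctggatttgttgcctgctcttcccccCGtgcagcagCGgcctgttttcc
Gbx2: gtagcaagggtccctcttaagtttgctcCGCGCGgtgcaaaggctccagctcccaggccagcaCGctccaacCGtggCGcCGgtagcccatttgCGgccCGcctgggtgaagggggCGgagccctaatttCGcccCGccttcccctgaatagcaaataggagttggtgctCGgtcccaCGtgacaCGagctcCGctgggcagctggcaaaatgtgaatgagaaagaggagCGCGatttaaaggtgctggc
Foxd3: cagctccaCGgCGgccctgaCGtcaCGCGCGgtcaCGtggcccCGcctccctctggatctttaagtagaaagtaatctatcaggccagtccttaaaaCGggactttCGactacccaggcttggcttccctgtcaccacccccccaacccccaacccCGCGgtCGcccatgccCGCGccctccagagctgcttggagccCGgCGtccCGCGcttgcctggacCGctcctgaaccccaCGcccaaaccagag
The Otx2 window shown held 6 CpGs and a GC content of 42.0%, against a median of 6 CpGs and 52.4% over all 32851 windows. It is the most upstream of 4 Otx2 windows, which held 6, 8, 14 and 9 CpGs with 42.0%, 49.2%, 48.4% and 53.6% GC, and the only one of them free of annotated Otx2 exons. It lies before the start of ENSMUST00000152018, which had 19, 9 and 1 reads in wildtype, DAXX knockout and ATRX knockout cells. In the reference annotation, the Otx2 transcript with most reads, ENSMUST00000118578, starts next to the window with 14 CpGs. Gbx2 had 1 window, with 18 CpGs and 61.6% GC, and Foxd3 had 1, with 21 and 65.6%.

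The 13 windows were searched on both strands for 6 short motifs, 5 of them cores bound by the families these genes belong to. CTTTGA, a core bound by TCF and LEF factors that 13.8% of all windows hold, was found in 1 window of Lef1, at 2 places. ACAAAG, a core bound by SOX factors that 16.5% of windows hold, was found in windows of Fgf5, Lef1 and Tcf7l1. TAATCC, the core bound by OTX factors (6.25% of windows), was found in another Otx2 window. CAGCAGG, a ZIC core (8.44%), was found at 1 place that 2 overlapping Lef1 windows share. The POU octamer ATGCAAAT, in 1.60% of all windows, was in none of the 13. TATAAA, the core of a TATA box, was found in the Otx2 window shown, at position -192 from the start, and in a Lef1 window at -231, and 12.4% of all windows hold it. These are matches of letters and not shown binding sites.

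The libraries held 11224100 to 13988376 reads on transcripts, and 77.0% to 78.9% of reads aligned. Levels are given as counts per 1000000 reads (CPM) on library sizes scaled with the trimmed mean of M-values (TMM). To be called, a gene needed 1 CPM or more in a compared library and a fold whose 95% counting interval was entirely past 2-fold. Values that stand in a row without labels are for wildtype, the DAXX knockout and the ATRX knockout, always in that order. The intervals cover counting error only, and reads without molecular identifiers are not independent molecules. Atrx had 4582, 3576 and 1800 reads. Daxx had 1125, 623 and 972 reads, so both targeted genes had fewest reads in their own knockout while neither was near 0. On scaled library sizes the ATRX knockout held 41.2% of the wildtype Atrx level (39.0% to 43.5%), a called difference. The DAXX knockout held 73.6% of the wildtype Daxx level (66.6% to 81.2%), which was not called. Where the targeted changes lie within these genes is not stated in the labels. Pou5f1 (Oct4), which defines pluripotent cells, had 17316, 15917 and 17781 reads. The DAXX knockout library was the smallest, so raw reads understate its level there. Scaled, Pou5f1 with the shared factors Sox2 and Sall4 summed to 1730, 2033 and 1811 CPM. In the DAXX knockout all 3 of them had their whole interval above wildtype, with log2 folds (prior count of 1) of 0.09 to 0.29. Marker genes of embryonic endoderm differed between the libraries: their 19 genes summed to 769, 318 and 491 CPM.

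Of the 10 epiblast genes, 9 passed the level filter in each comparison. Against wildtype, none of the 9 was called in the DAXX knockout, where 2.04% of all 13151 genes tested were (0.487% higher and 1.55% lower). Otx2 was the only one of the 9 called in the ATRX knockout, and was lower there, where 1.84% of 13230 genes were called (0.695% higher and 1.15% lower). Between the knockouts, Otx2 and Gbx2 were lower in the ATRX knockout, where 1.13% of 12991 genes were called (0.77% higher and 0.362% lower in the ATRX knockout). The median log2 fold of the 9 against wildtype was -0.05 for the DAXX knockout (0.03 over all genes) and -0.30 for the ATRX knockout (0.02 over all genes). Between the knockouts it was -0.68 (0.00 over all genes). The comparisons against wildtype share the wildtype library, so their values are given side by side and not set against each other as separate evidence.

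Smaller differences were common among these genes and among all genes. An interval wholly on 1 side of no change was found in the DAXX knockout for 4 of the 9, against 40.8% of all genes: Gbx2, Foxd3 and Tcf7l1 above wildtype (23.7% of all genes) and Otx2 below (17.1%). In the ATRX knockout it was found for 6 of the 9, against 46.7%: Sox3 and Tcf7l1 above (25.4%) and Otx2, Gbx2, Zic2 and Zic5 below (21.3%). Between the knockouts it was found for 7 of the 9, against 41.6%, with Sox3 higher in the ATRX knockout (20.7%) and 6 genes lower there (20.9%). Lower intervals there were not particular to the epiblast genes. Of 14 naive genes described below, 10 were lower in this way and 3 higher (median log2 fold -0.21). Of 17 further formative and primed genes, 9 were lower and 4 higher (median -0.27). A fold beyond 1.5, whatever its interval, was found for 3, 5 and 6 of the 9 in these comparisons, against 16%, 17% and 16.2% of all genes.

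**Figure D1:**
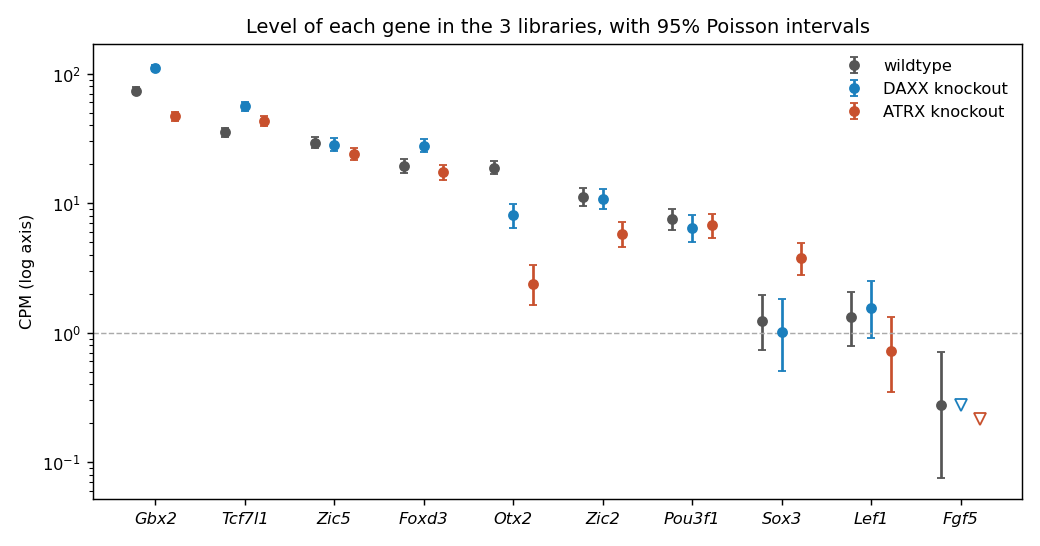
Level of each gene in CPM (log axis) in the wildtype, DAXX knockout and ATRX knockout libraries, with 95% Poisson intervals; open triangles mark the level of 3 reads where no read was counted and the dashed line is 1 CPM. Otx2 stepped down from 18.8 to 8.06 and 2.38 CPM, while Gbx2 was highest in the DAXX knockout and lowest in the ATRX knockout.

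Otx2 is a homeobox factor of the forebrain and midbrain and, before that, of the epiblast leaving the naive state. Its gene lies at chr14:48657677-48673819 on the minus strand (GRCm38). It had 273, 88 and 33 reads, or 18.8 CPM (16.6 to 21.2), 8.06 CPM (6.46 to 9.93) and 2.38 CPM (1.64 to 3.35). The 3 intervals did not overlap, with wildtype highest and the ATRX knockout lowest. The ATRX knockout held 12.7% of the wildtype level (8.55% to 18.2%), a log2 fold of -2.98 (-3.55 to -2.46). Only 53 of the 13230 genes tested, 0.40%, had a lower fold. The DAXX knockout held 42.8% (33.3% to 54.7%), a log2 fold of -1.22 (-1.59 to -0.87) whose upper bound lay inside 2-fold, so Otx2 was not called there. Between the knockouts the log2 fold was -1.76 (-2.38 to -1.17), and the ATRX knockout held 29.6% of the DAXX knockout's level.

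Otx2 is also expressed in visceral endoderm, so the endoderm markers are given beside it. In the DAXX knockout against wildtype, 11 of 14 tested endoderm genes were called lower, among them Gata4, with 97 wildtype reads and 9 in the knockout, and Cubn, with 213 and 2. In the ATRX knockout 3 of 14 were called lower (Dab2, Cubn and Lama1), 10 of 14 had their whole interval below wildtype, and the list median was -0.64, while Gata4 had 75 reads. Between the knockouts the endoderm list went the other way from Otx2: 5 of its 11 tested genes were higher in the ATRX knockout and none was lower. Sox17 had 20, 0 and 8 reads, and Ttr was at 0 in all 3 libraries. Gata4, Sox17 and Ttr are named as defining markers of endoderm. Markers of fibroblasts (12 genes, summing to 34.0, 11.3 and 19.2 CPM) and of trophoblast (12 genes, summing to 131, 88.7 and 97.6 CPM) were likewise highest in wildtype. In the DAXX knockout 4 of 6 tested fibroblast genes and 2 of 8 tested trophoblast genes were called lower (1.55% of all genes). In the ATRX knockout 1 of 7 and 1 of 8 were (1.15%), and 0 were called higher in either. Primitive streak and mesoderm markers summed to 9.64, 7.23 and 10.3 CPM. The part of such other cells in the Otx2 levels was not tested.

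The lower Otx2 level appeared on each transcript that carried many reads. Of 6 annotated Otx2 transcripts, 3 carried most reads, and the one with most (ENSMUST00000118578) had 123, 37 and 9 reads. ENSMUST00000119070 had 57, 23 and 11, and ENSMUST00000122009 had 63, 15 and 8. All 3 were ordered wildtype, DAXX knockout, ATRX knockout from high to low. Their log2 folds in the ATRX knockout against wildtype were -3.70 (-4.87 to -2.73), -2.31 (-3.39 to -1.36) and -2.91 (-4.18 to -1.84), with overlapping intervals. Reads from shared exons can be placed on any of them: 29.3% of the 36-base words of the first occur in it alone, and 0% of those of the second. These shares come from the reference annotation, where the first is 2144 bases long, against 2284 bases in the deposited counts. The long RNA antisense to Otx2, Otx2os1, had 1 read in wildtype and none in the knockouts. The nearest genes, Tmem260 and Exoc5, had log2 folds of -0.46 (-0.83 to -0.09) and -0.45 (-0.59 to -0.30) in the ATRX knockout against wildtype. Neither was called, but both intervals lay wholly below no change, as did those of 21.3% of all genes. In the DAXX knockout their log2 folds were -0.11 (-0.49 to 0.26) and -0.27 (-0.42 to -0.12).

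**Figure D2:**
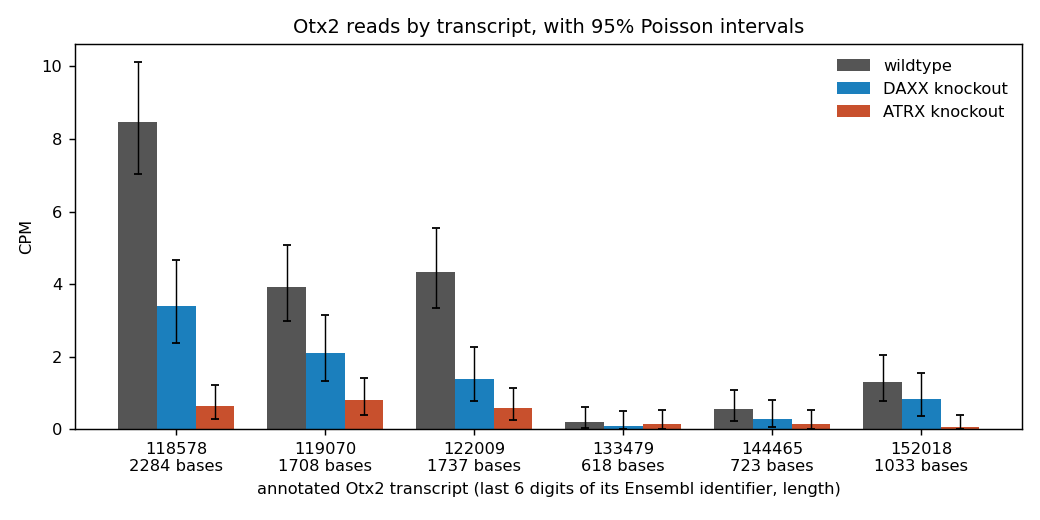
CPM on each of the 6 annotated Otx2 transcripts (labelled by the end of the Ensembl identifier and the length) in the 3 libraries, with 95% Poisson intervals. On the 3 transcripts with most reads the bars step down from wildtype to the DAXX knockout to the ATRX knockout.

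Gbx2 is a homeobox factor that opposes Otx2 at the midbrain-hindbrain boundary and sustains self-renewal of ESCs downstream of leukaemia inhibitory factor. It lies at chr1:89927956-89931179 on the minus strand. It had 1072, 1210 and 648 reads, or 73.9 CPM (69.5 to 78.4), 111 CPM (105 to 117) and 46.8 CPM (43.3 to 50.5). The DAXX knockout was highest and the ATRX knockout lowest, with no overlap. Its log2 fold over wildtype was 0.59 in the DAXX knockout, and the ATRX knockout held 63.4% of the wildtype level, neither beyond 2-fold. Only the comparison between the knockouts passed the limit, with a log2 fold of -1.24 (-1.38 to -1.10), or 42.2% of the DAXX knockout's level. The share of its reads on the retained-intron transcript was 29.8%, 29.1% and 29.0%, with overlapping exact binomial intervals. Otx2 and Gbx2 were thus both lower in the ATRX knockout than in the DAXX knockout, while against wildtype the DAXX knockout held less Otx2 and more Gbx2.

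Pou3f1, a POU factor induced with Otx2 at the exit from the naive state, lies at chr4:124656807-124660655. It had 109, 70 and 93 reads, or 7.51, 6.41 and 6.72 CPM. The 3 intervals overlapped, and its log2 folds were -0.23 (-0.68 to 0.22) and -0.16 (-0.58 to 0.25) against wildtype. These intervals leave out a 2-fold difference in either direction. Fgf5, at chr5:98254184-98277030, had 4 reads in wildtype and 0 in both knockouts. At 0.276 CPM in wildtype (0.0751 to 0.706) it was below the level filter in every library. The limits that 0 reads allow, taken as 3 reads, are 0.275 CPM (DAXX knockout) and 0.217 CPM (ATRX knockout), so no difference was detectable at this depth and no fold is given.

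The 4 transcription factors Foxd3, Zic2, Zic5 and Sox3 differed in direction and size. Foxd3, a forkhead factor needed to maintain the epiblast, lies at chr4:99656299-99658622. It had 281, 304 and 240 reads, or 19.4, 27.8 and 17.3 CPM. The DAXX knockout stood above both others, with a log2 fold of 0.52 (0.29 to 0.76) over wildtype. Its log2 fold was -0.16 (-0.41 to 0.09) in the ATRX knockout against wildtype and -0.68 (-0.93 to -0.43) between the knockouts. None of the 3 was called.

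Zic2 and Zic5 are zinc-finger genes that lie head to head on chromosome 14, with starts 9758 bases apart. Zic2 (chr14:122475435-122479852) had 162, 118 and 80 reads, or 11.2, 10.8 and 5.78 CPM. The ATRX knockout was lowest, at 51.8% of wildtype (39.1% to 68.1%), an interval that reaches inside 2-fold. Zic5 (chr14:122456795-122465677) had 426, 309 and 331 reads, or 29.3, 28.3 and 23.9 CPM. Its log2 fold in the ATRX knockout against wildtype was -0.30 (-0.51 to -0.09), which does not overlap that of Zic2, -0.95 (-1.35 to -0.55). In the DAXX knockout both neighbours had a log2 fold of -0.05 against wildtype, with intervals across 0.

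Sox3, a SOXB1 factor of the X chromosome (chrX:60891366-60893430) active in epiblast and neural progenitors, was the one gene with its highest level in the ATRX knockout. It had 18, 11 and 52 reads, or 1.24 CPM (0.735 to 1.96), 1.01 CPM (0.503 to 1.80) and 3.76 CPM (2.80 to 4.92). The ATRX knockout stood apart from both others, which overlapped. The ratio to wildtype was 3.03 (1.74 to 5.50) and to the DAXX knockout 3.73 (1.92 to 7.92), and both lower bounds lay inside 2-fold. Sox1, a close relative that marks neuroectoderm, had 289, 301 and 567 reads, with a log2 fold of 1.04 (0.83 to 1.25) in the ATRX knockout against wildtype, also not called. Sox2, the third of the group, had log2 folds of 0.09 and 0.05 in the DAXX and ATRX knockouts. The 14 neuroectoderm markers summed to 158, 136 and 135 CPM. Of the 6 tested, 0 were called in any comparison, where 2.04%, 1.84% and 1.13% of all genes were. In the ATRX knockout Sox1 was the only one of those 6 above wildtype: the other 5 were below it, 4 of them by their whole interval, and the list median was -0.47. Their part in the Sox3 level was not tested.

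Tcf7l1, at chr6:72626378-72789254, had 510, 611 and 596 reads, or 35.1 CPM (32.2 to 38.3), 55.9 CPM (51.6 to 60.6) and 43.0 CPM (39.7 to 46.6). The 3 intervals did not overlap, with both knockouts above wildtype. The ratios were 1.59 (DAXX knockout) and 1.23 (ATRX knockout), and neither was called. Lef1, at chr3:131110471-131224356, had 19, 17 and 10 reads, or 1.31, 1.56 and 0.722 CPM, with overlapping intervals throughout. It passed the filter in the ATRX comparisons only through the other library, and its log2 fold against wildtype of -0.86 (-2.13 to 0.32) does not exclude a 2-fold difference. On its transcript with most reads alone, ENSMUST00000106341, which had 9, 8 and 1 reads, Lef1 was not called in either ATRX comparison. The log2 fold of the ATRX knockout there was -3.10 (-8.56 to -0.25) against wildtype and -3.34 (-8.81 to -0.44) against the DAXX knockout. Only 0.963% of its words, of the length used for Otx2, occur in it alone, so its reads can belong to other Lef1 transcripts. Of these, ENSMUST00000029611 had 3, 1 and 3 reads, ENSMUST00000066849 had 4, 5 and 2, and ENSMUST00000098611 had 3, 3 and 4. A difference between Lef1 transcripts was not tested. Of the relatives of Tcf7l1 and Lef1, Tcf7 had log2 folds of -0.61 and -0.08 in the DAXX and ATRX knockouts. Tcf7l2 had 0.65 and -0.27 there, and neither relative was called.

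**Figure D3:**
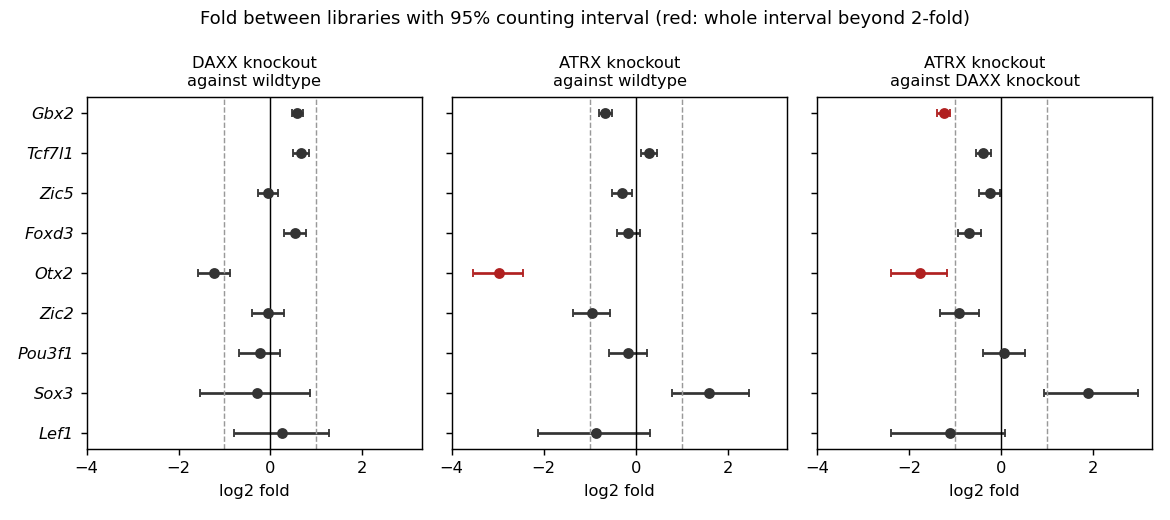
Log2 fold of 9 genes in each of the 3 comparisons, with 95% counting intervals; dashed lines mark 2-fold and red marks an interval wholly beyond it. Otx2 lies beyond the limit in the ATRX knockout against both other libraries, and Gbx2 in the ATRX knockout against the DAXX knockout.

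Per length, Gbx2 was the most abundant of the 10 transcripts in every library and Tcf7l1 the next. Levels in transcripts per 1000000 (TPM) in wildtype were 84.2 for Gbx2, 27.9 for Tcf7l1, 21.6 for Otx2, 16.6 for Foxd3, 12.2 for Zic5, 9.10 for Zic2, 3.88 for Pou3f1, 1.19 for Sox3, 0.826 for Lef1 and 0.393 for Fgf5. By their counting intervals Lef1 was not separated from Sox3 above it or from Fgf5 below it, while each other pair of neighbours in that order was. Otx2 moved from rank 3 in wildtype to 5 in the DAXX knockout, at 8.93 TPM, and 8 in the ATRX knockout, at 2.93 TPM. These 2 knockout ranks were not resolved by the counting intervals. In the DAXX knockout the Otx2 interval overlapped those of Zic5 (11.0 TPM) and Zic2 (8.18 TPM). In the ATRX knockout it overlapped those of Pou3f1 (3.22 TPM), Sox3 (3.36 TPM) and Zic2 (4.37 TPM).

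**Figure D4:**
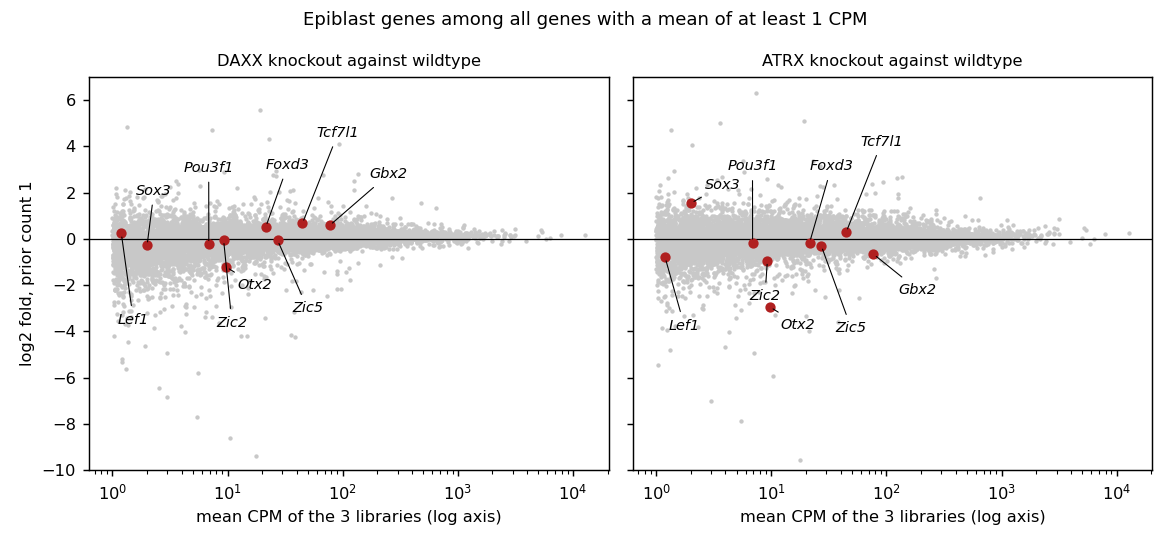
Log2 fold against wildtype (prior count of 1) over the mean CPM of the 3 libraries (log axis) for each gene averaging 1 CPM or more, with 9 epiblast genes in red. Otx2 lies at the lower edge of the cloud in the ATRX knockout, Sox3 at its upper edge, and most others within it.

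Of 17 further genes of the formative and primed states, all tested, 0 were called in any of the 3 comparisons. Over all genes 2.04%, 1.84% and 1.13% were called, so 0 of 17 says little about this list. Its median log2 folds against wildtype were 0.13 (DAXX knockout) and -0.10 (ATRX knockout). In the DAXX knockout 10 of the 17 had their whole interval above wildtype and 3 below (23.7% and 17.1% of all genes). In the ATRX knockout 6 were above and 8 below (25.4% and 21.3%). Chosen after the values were seen, Dnmt3b, a de novo DNA methyltransferase of the epiblast, had 1347, 922 and 606 reads. Against wildtype the ATRX knockout stood at a log2 fold of -1.08 (-1.23 to -0.94), just short of a call, and the DAXX knockout at -0.14. Fgf15 had 182, 53 and 89 reads, with a log2 fold of -1.37 (-1.84 to -0.92) in the DAXX knockout, and Grhl2 had 108, 193 and 121, with 1.25 (0.90 to 1.60) there. Both were chosen in the same way, and neither was called.

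Naive genes, the opposite end of the path, had medians of 0.28 (DAXX knockout) and -0.00 (ATRX knockout) over 14 genes, all tested. Dppa3 (Stella), a maternal factor of naive and germ cells, fell in the ATRX knockout: it had 123, 60 and 10 reads, with a log2 fold of -3.55 (-4.65 to -2.63). It was the only naive gene called. The most abundant naive genes, Zfp42, Tfcp2l1 and Esrrb, had log2 folds of -0.09, 0.37 and 0.21 in the ATRX knockout and of -0.03, 0.53 and 0.35 in the DAXX knockout. The shared factors Pou5f1, Sox2 and Sall4 were not called in any comparison. Otx2 and Dppa3 were both lower in the ATRX knockout, each the only gene of its list called there against wildtype. Of the 14 naive genes, 5 had their whole interval above wildtype in the ATRX knockout and 5 below. Dppa3 therefore does not stand for the naive genes as a set.

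In the Wnt pathway, through which Tcf7l1 and Lef1 act, 0 of 21 tested genes were called for the DAXX knockout and 0 of 22 for the ATRX knockout against wildtype, with medians of 0.01 and -0.04. Ctnnb1, which encodes beta-catenin, had log2 folds of 0.13 and 0.20, the scaffold Apc 0.29 and -0.14, and the corepressor Tle4 0.02 and -0.33. Between the knockouts Notum, a secreted Wnt inhibitor, was lower in the ATRX knockout, with 302, 418 and 195 reads and a log2 fold of -1.44 (-1.70 to -1.19). None of 8 tested FGF ligands, receptors and response genes was called in any comparison. Among relatives of the epiblast genes, 0 of 8 tested for the DAXX knockout and 0 of 9 for the ATRX knockout were called against wildtype. Over all genes 2.04% and 1.84% were called against wildtype and 1.13% between the knockouts. At these shares 0 calls in the Wnt, FGF and relatives lists says little about them. Otx1 had 15, 2 and 8 reads, Gbx1 10, 15 and 15, and the ESC growth factor Fgf4 2406, 1587 and 2434. Foxd1 was higher in the ATRX knockout than in the DAXX knockout, on 22 reads against 2, with 5 in wildtype.

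**Figure D5:**
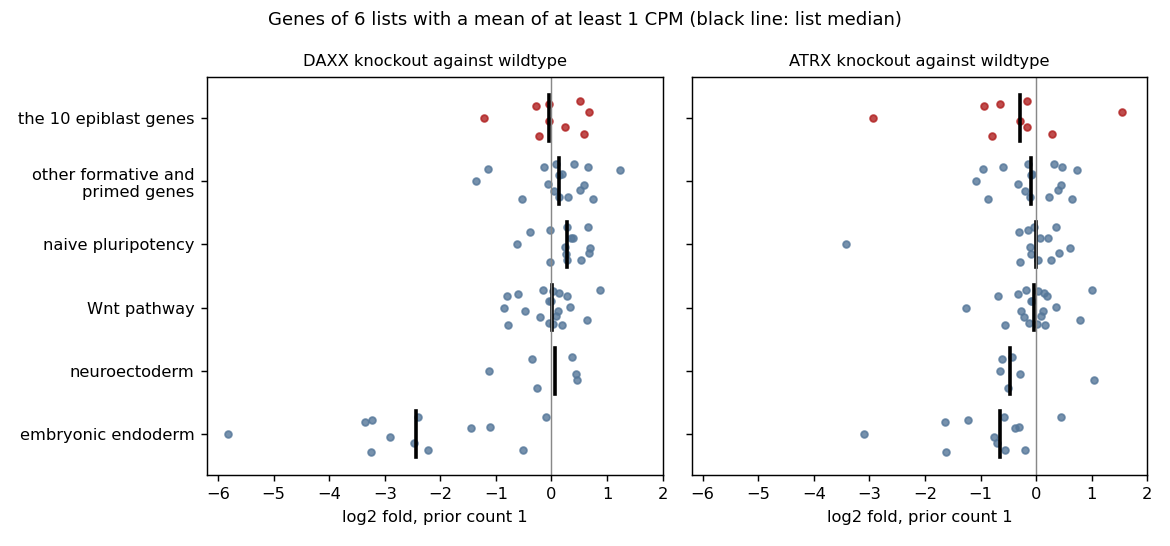
Log2 fold against wildtype (prior count of 1) of each gene averaging 1 CPM or more in 6 gene lists, 1 point a gene, with the list median as a black line. The epiblast genes center on -0.05 and -0.30, and the endoderm list on -2.43 and -0.64, in the DAXX and ATRX knockouts.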

How the data were processed

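Polyadenylated RNA was measured in 3 libraries, 1 per genotype. The authors deposited raw read counts per transcript sequence (50407 named sequences), with the layout of SAMtools idxstats. The submitters' processing notes name the aligner Bowtie 1.1.2, SAMtools and the build GRCm38.p4. Alignment settings, annotation release and use of strand are not given in the sources used here. Counts were summed per symbol over 48843 transcripts. TMM sizes came from edgeR 4.0.16 in R 4.3.3, and exact Poisson and conditional binomial (Clopper-Pearson) intervals from SciPy 1.17.1. With 1 library per genotype no test was run. TPM used the listed transcript lengths. List medians cover genes averaging 1 CPM or more and use a prior count of 1. Gene positions came from the reference annotation of GRCm38. A count of 3 reads corresponds to 0.207, 0.275 and 0.217 CPM in wildtype, the DAXX knockout and the ATRX knockout. The calling step was tested on simulated data.

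All 10 genes were named, with called genes of the other lists (at most 6 a list), the 3 most abundant naive and Wnt genes, and relatives with at least 1 CPM, of which 1 is not reported here. Members and lists were chosen with earlier results of these data known. The 6 alternatives tried were total-count scaling, DESeq2 1.42.0 size factors, the most abundant transcript alone, counts thinned to the smallest library, no level filter and a 1.5-fold limit.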

Additional observations from a re-analysis of the deposited data

How the results depend on the processing

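Otx2 was called lower in the ATRX knockout under all 6 alternatives, with log2 folds of -3.70 to -2.98 against wildtype and -2.38 to -1.73 against the DAXX knockout, and Gbx2 was called between the knockouts under all 6 (-1.25 to -1.22). Of these, the 1.5-fold limit and the lack of a level filter could not undo a call, and they left the folds unchanged. With a 1.5-fold limit, calls over all genes went from 268 to 596 in the DAXX knockout, from 244 to 700 in the ATRX knockout and from 147 to 518 between the knockouts. That limit added 1 lower gene in the DAXX knockout (Otx2) and 1 higher gene in the ATRX knockout against each other library (Sox3). With thinned counts Sox3 was called higher in the ATRX knockout than in wildtype, 1 gene, at 2.10 (1.08 to 3.27). Thinning also turned the Sox3 log2 fold in the DAXX knockout from -0.30 to 0.23, and the median of the 9 genes there from -0.05 to 0.17. Total-count scaling moved the median of all genes to -0.07 (DAXX knockout) and -0.05 (ATRX knockout). It also moved the upper bound of the Zic5 log2 fold between the knockouts from -0.01 to 0.01, across no change. The causes were not tested. Depth limits Fgf5, Lef1 and Sox3, with at most 52 reads in a library. No paired analysis was possible because each genotype had 1 library.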
